A study of Mus musculus with 12 samples.

Results

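The D-type cyclins, their partner kinases and the inhibitors of those kinases were followed across sorted cells of mouse cutaneous squamous cell carcinoma. The members were picked out by gene name, and are 10 of the 53801 genes listed in each count table. They are the cyclins Ccnd1, Ccnd2 and Ccnd3, the kinases Cdk4 and Cdk6, the Cip/Kip inhibitors Cdkn1a (p21) and Cdkn1b (p27), and the Ink4 inhibitors Cdkn2a (p16Ink4a and p19Arf), Cdkn2b (p15) and Cdkn2c (p18). All tumors came from FVB mice. Epithelial tumor cells were purified as basal cells carrying a Rosa-YFP mark and the integrins CD49f and CD29. They were divided by an mScarlet reporter of TGF-beta signalling into 3 negative and 3 positive libraries. Tumor macrophages, sorted as CD45+ F4/80+ cells, make up the other 6 libraries: 3 without and 3 with FceRIa, the subunit through which the high-affinity receptor holds IgE. Age, sex, the way the tumors were induced, the driver of the YFP mark and any pooling of animals are not given in the labels. No label states that replicates are separate animals, and p-values therefore reflect only the scatter among these libraries, which may be technical. An exception is macrophage replicates 2 and 3, whose sex-linked transcripts, given below, differ as between male and female animals.

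As background, D-type cyclins bind and activate CDK4 and CDK6, which phosphorylate the retinoblastoma protein and so release E2F factors that drive entry into S phase. Ink4 proteins bind CDK4 and CDK6 directly and displace the cyclin, while p21 and p27 bind cyclin-CDK complexes, above all those of CDK2. In keratinocytes TGF-beta is a classical inhibitor of growth that induces p15 and p21, and cyclin D1 and the Cdkn2a locus are frequent targets of change in squamous carcinomas.

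The tumor libraries held 27951632 to 35088897 counts each and the macrophage libraries 33704786 to 40041144. Levels are given as CPM, counts per 1000000 of the TMM-normalized library size on a scale common to all 12 libraries, and 3 counts correspond to between 0.0683 and 0.1086 CPM. The summed CPM of 10 keratinocyte genes was 66884 to 83877 in tumor libraries and 601 to 3966 in macrophage libraries, and that of 10 macrophage genes was 19.7 to 98.8 and 15054 to 30960, so both labels matched their markers. Tumor replicates 1 and 3 lay close to each other in both groups, where chi-square over genes divided by its degrees of freedom was 2.97 (negative) and 1.62 (positive), against 43.1 to 90.6 for pairs that include replicate 2. Macrophage replicate 2 libraries carry the word New in the deposited column names, and had 4817 and 5972 counts of the Y-linked gene Ddx3y and 4 and 6 of Xist. Macrophage replicate 3 libraries had 3 and 6 counts of Ddx3y and 16108 and 18122 of Xist, and replicate 1 libraries had both transcripts. Deviations from the group means correlated between libraries of the same number at 0.449, 0.703 and 0.488 in the tumor cells and at 0.688, 0.787 and 0.734 in the macrophages. Between tumor replicates 1 and 3 the correlations across numbers were as high, at 0.488 and 0.483. The tumor numbers thus separate replicate 2 from 1 and 3, but not 1 from 3. With that limit the numbers were taken to pair the libraries. Each call of a member is given from the fit without pairing and from the paired fit. Calls of marker genes are from the paired fit unless stated.

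The first comparison was between TGF-beta reporter-positive and reporter-negative tumor cells. In reporter-positive cells cyclin D2 and 3 CDK inhibitors, Cdkn1a, Cdkn2a and Cdkn2b, were higher, by 1.59- to 2.45-fold in mean CPM. Cdkn2c was lower, at 0.699 of the negative mean, and the levels of Cdk4 overlapped between the groups. Without pairing, edgeR's quasi-likelihood test called 1 of 10 members higher (Ccnd2) and 0 lower at an adjusted p of 0.05, where 0.573% of all 13604 genes tested were called higher, 0.235% lower and 0.809% in either direction. At an unadjusted p under 0.05 there were 8 members and 2642 genes. The paired fit called 4 members higher (Ccnd2, Cdkn1a, Cdkn2a and Cdkn2b) and 1 lower (Cdkn2c), where 10.7% of all genes were called higher, 7.34% lower and 18.0% in either direction. DESeq2 without pairing called 5 members higher (Ccnd1, Ccnd2, Cdkn1a, Cdkn2a and Cdkn2b) and 1 lower (Cdkn2c). It called 5.65% of all genes higher and 3.63% lower. In 9 of the 10 members the 3 positive libraries did not overlap the 3 negative ones, against 28.1% of all genes tested. The median log2 difference of the members was 0.15, beside 0.00 over all genes. In bulk libraries a change in the share of cells that express a gene and a change in RNA per cell cannot be told apart.

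**Figure D1:**
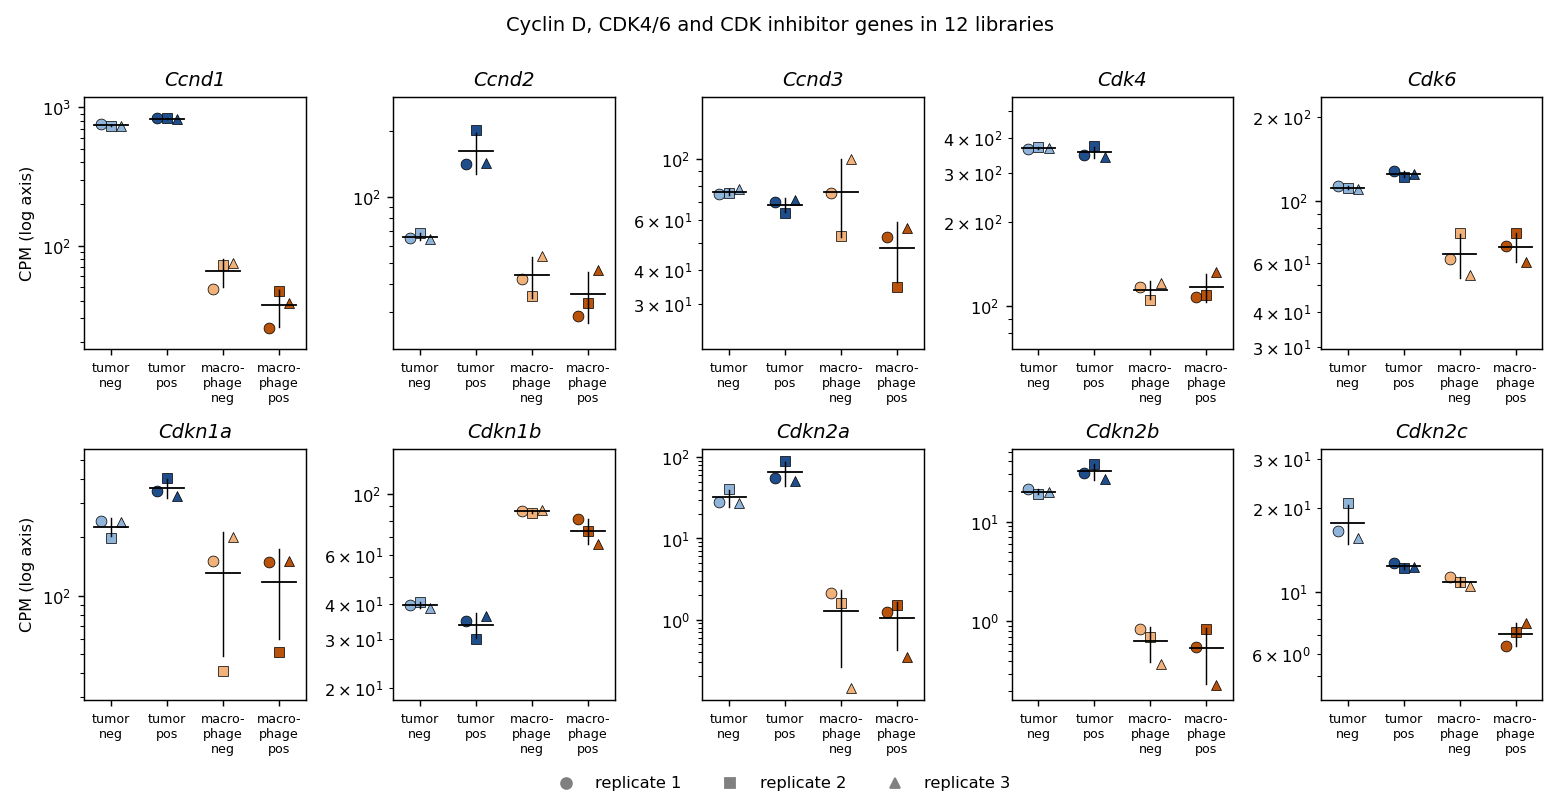
CPM of each member gene in the 12 libraries on log axes whose range differs between panels, with 3 libraries per group drawn as points (the symbol gives the replicate number), a bar at the group mean and a line of 1 SD. Ccnd2, Cdkn1a, Cdkn2a and Cdkn2b lie higher in reporter-positive than in reporter-negative tumor libraries, and Cdkn2a and Cdkn2b lie at or below 2.11 CPM in all 6 macrophage libraries.

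Among the cyclins, Ccnd2 (ENSMUSG00000000184, GRCm38 chr6:127125162-127152193, minus strand) had levels of 64.9, 68.6 and 64.5 CPM in reporter-negative replicates 1, 2 and 3 and of 141, 201 and 143 CPM in reporter-positive replicates 1, 2 and 3. All positive libraries lay above all negative ones, and positive replicate 2 was the highest. The log2 difference was 1.28 ± 0.14 (SE), with an edgeR adjusted p of 0.0389 without pairing and 0.00227 in the paired fit. The ratio within a replicate number was 1.12, 1.55 and 1.15 on the log2 scale. The unpaired call rested on most libraries: its adjusted p was 0.249, 0.0867 and 0.25 without negative replicate 1, 2 or 3, 0.172 without positive replicate 1 and 0.154 without positive replicate 3, and 0.00339 without positive replicate 2. With replicates 1 and 3 of each group summed it was 0.681 without and 0.00351 with pairing. The difference itself ranged from 1.10 to 1.37 over the 6 fits with 1 library left out.

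Ccnd1 (ENSMUSG00000070348, chr7:144929931-144939925, minus strand), the cyclin most often raised in carcinomas, was at 752, 729 and 739 CPM in the negative and 838, 832 and 822 CPM in the positive libraries. The groups did not overlap, but the log2 difference of 0.16 ± 0.06 did not pass edgeR's test (adjusted p 0.193 unpaired and 0.0701 paired). With DESeq2 it passed without pairing (adjusted p 0.0251) but not with pairing (0.145). Ccnd3 (ENSMUSG00000034165, chr17:47505051-47599691, plus strand) was at 74.7, 75.0 and 77.9 CPM in the negative and 69.8, 64.0 and 71.1 CPM in the positive libraries. It too did not overlap and did not pass, with a log2 difference of -0.16 ± 0.07 and an adjusted p of 0.266 unpaired and 0.0829 paired.

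The make-up of the cyclin D pool was compared on a scale of CPM per kilobase of exon, since the 3 genes differ in length (4709, 9409 and 8775 bases of merged exons for Ccnd1, Ccnd2 and Ccnd3). Ccnd1 made up 90.9% ± 0.241 (SD, n = 3) of the summed level in reporter-negative and 87.6% ± 1.36 in reporter-positive cells. The share of Ccnd2 was 3.94%, 4.27% and 3.97% in negative replicates 1, 2 and 3 and 7.48%, 10.4% and 7.70% in the positive ones. The Ccnd2 share was thus 4.5 percentage points higher in the positive group, and every positive library exceeded every negative one. A two-sided exact permutation test gave p = 0.1, the smallest that 3 against 3 libraries allow. The share of Ccnd3 was 5.0% ± 0.141 in negative and 3.87% ± 0.280 in positive cells. The summed cyclin D level was 171 to 175 CPM per kilobase in the negative and 198 to 205 in the positive libraries.

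**Figure D2:**
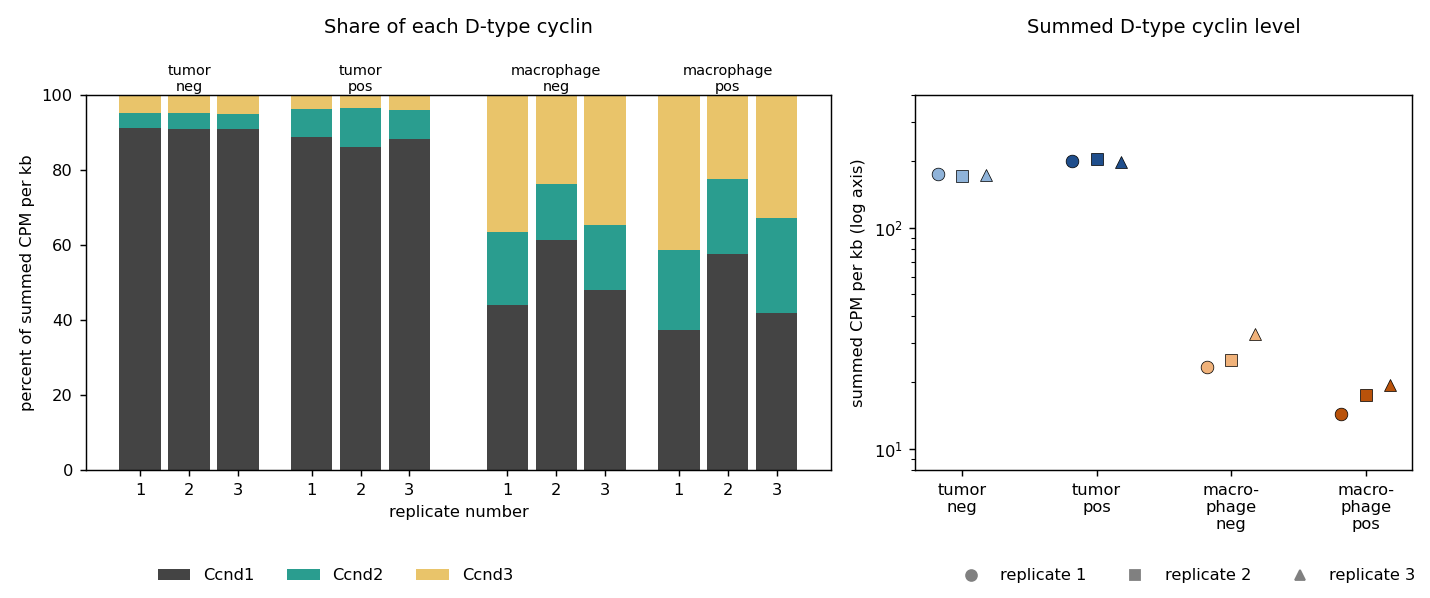
Left, percent of the summed CPM per kilobase of exon taken by Ccnd1, Ccnd2 and Ccnd3 in each library, and right, the summed level on a log axis with 1 point per library. Ccnd1 takes 86.1% to 91.2% in the tumor libraries and 37.4% to 61.3% in the macrophage libraries, and the summed level is 171 to 205 in the former and 14.4 to 33.0 in the latter.

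The partner kinases differed little between the tumor groups. Cdk4 (ENSMUSG00000006728, chr10:127063534-127067920, plus strand) was at 365, 371 and 368 CPM in the negative and 349, 376 and 344 CPM in the positive libraries. These ranges overlapped, the log2 difference was -0.05 ± 0.06 with a 95% interval of -0.21 to 0.11, and the edgeR adjusted p was 0.684. Cdk6 (ENSMUSG00000040274, chr5:3341485-3531008, plus strand) was at 113, 112 and 111 CPM in the negative and 128, 122 and 125 CPM in the positive libraries. Its groups did not overlap, and the log2 difference of 0.14 ± 0.05 (95% interval -0.01 to 0.30) had an adjusted p of 0.218 unpaired and 0.0825 paired.

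Among the Cip/Kip inhibitors, Cdkn1a (ENSMUSG00000023067, chr17:29090976-29100727, plus strand), a target of p53 and of TGF-beta signalling, was at 243, 199 and 241 CPM in the negative and 347, 406 and 329 CPM in the positive libraries. Replicate 2 was the lowest of the negative and the highest of the positive libraries, and the groups did not overlap. The log2 difference was 0.66 ± 0.11, with an edgeR adjusted p of 0.0628 unpaired and 0.0147 paired. The unpaired adjusted p was 0.0412 when positive replicate 2 was left out and 0.111 to 0.274 when any other single library was. With replicates 1 and 3 of each group summed, the adjusted p was 0.681 without and 0.02 with pairing. Cdkn1b (ENSMUSG00000003031, chr6:134920401-134925513, plus strand), the inhibitor p27 that accumulates in resting cells, went the other way. It was at 39.8, 40.8 and 39.0 CPM in the negative and 34.8, 30.0 and 36.5 CPM in the positive libraries. The ranges did not overlap, but the log2 difference of -0.25 ± 0.09 did not pass (adjusted p 0.209 unpaired and 0.0821 paired).

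The Ink4 genes Cdkn2a (ENSMUSG00000044303, chr4:89274471-89294653, minus strand) and Cdkn2b (ENSMUSG00000073802, chr4:89306299-89311039, minus strand) are neighbours on chromosome 4. The Cdkn2a count sums transcripts of p16Ink4a and of p19Arf, which start at different first exons, so the 2 products cannot be told apart here. Cdkn2a was at 27.8, 40.7 and 27.5 CPM in the negative and 55.7, 90.4 and 51.7 CPM in the positive libraries. Replicate 2 was the highest in both groups, and no positive library fell into the negative range. The log2 difference was 1.03 ± 0.25 without pairing (edgeR adjusted p 0.105) and 1.02 ± 0.06 with pairing (adjusted p 0.00201), with ratios of 1.0, 1.15 and 0.91 on the log2 scale within replicates 1, 2 and 3.

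Cdkn2b, the Ink4 gene that TGF-beta is best known to induce, was at 21.2, 18.8 and 19.6 CPM in the negative and 30.9, 37.9 and 26.9 CPM in the positive libraries. All positive libraries were above all negative ones, by a log2 difference of 0.67 ± 0.13. The edgeR adjusted p was 0.0764 unpaired and 0.0148 paired. The unpaired adjusted p was 0.0382 when positive replicate 2 was left out and 0.151 to 0.311 when any other single library was. With replicates 1 and 3 of each group summed, the adjusted p was 0.681 without and 0.021 with pairing. Cdkn2c (ENSMUSG00000028551, chr4:109660876-109667189, minus strand), which encodes p18, moved the opposite way to Cdkn2a and Cdkn2b. It was at 16.6, 20.9 and 15.6 CPM in the negative and 12.7, 12.2 and 12.3 CPM in the positive libraries. The 3 positive libraries lay close together and below every negative one, with a log2 difference of -0.52 ± 0.13 and an adjusted p of 0.102 unpaired and 0.0262 paired. With replicates 1 and 3 summed and the pairing kept, Cdkn2c no longer passed, while Ccnd2, Cdkn1a, Cdkn2a and Cdkn2b did. That fit rests on 2 pairs of libraries, against 3 in the full paired fit, and has little from which to measure spread.

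**Figure D3:**
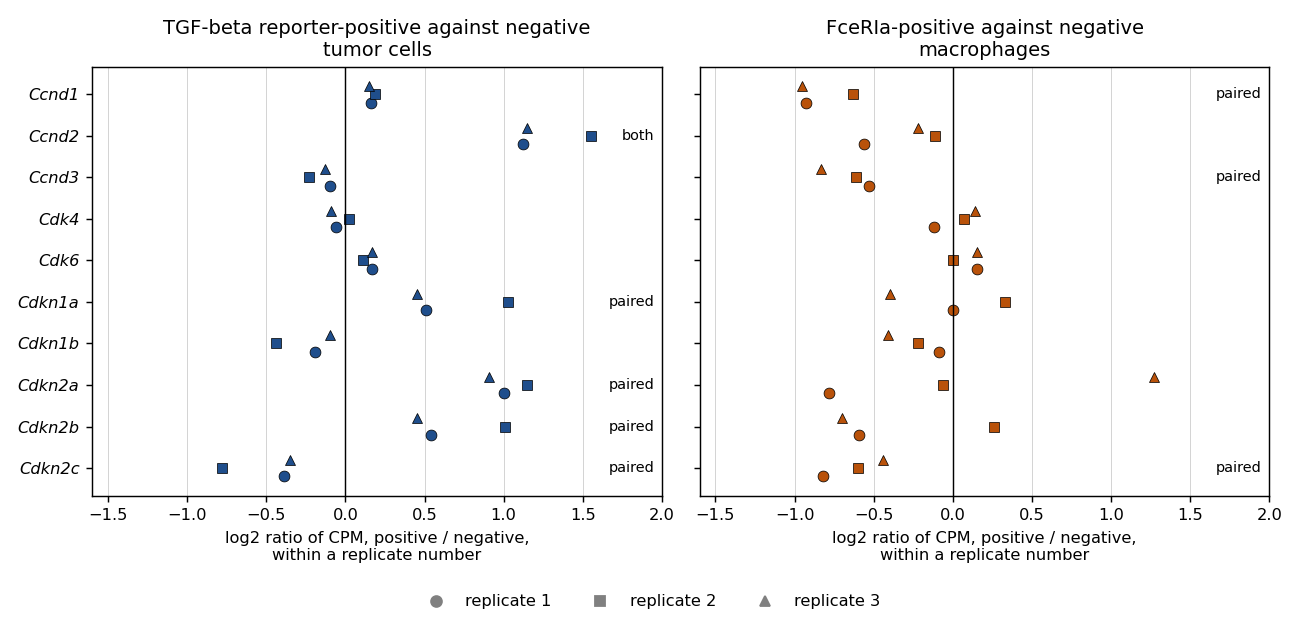
Log2 ratio of CPM, positive over negative, within each replicate number for the 10 members in tumor cells (left) and macrophages (right), with a label where edgeR's test called the gene in the paired fit or in both fits. In the tumor cells Ccnd2, Cdkn1a, Cdkn2a and Cdkn2b lie at 0.45 or above in all 3 replicates, and in the macrophages Ccnd1, Ccnd3 and Cdkn2c lie at -0.44 or below in all 3.

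The sequence just before the transcription start of Cdkn2b and Cdkn1a is shown because both genes were higher with the TGF-beta reporter and both are described as bound by SMAD proteins. RefSeq windows on GRCm38.p6 of 250 bases before a start were found for 8 of the 10 members, 12 windows in all. Capitals mark the SMAD core CAGAC or its complement GTCTG, the cAMP response element TGACGTCA and, in the first Cdkn1a window, decamers of the p53 response element, all searched on both strands. The Cdkn2b window is chr4:89311033-89311282 on the minus strand, and the Cdkn1a windows, for 2 start sites, are chr17:29090729-29090978 and chr17:29093519-29093768 on the plus strand.
Cdkn2b: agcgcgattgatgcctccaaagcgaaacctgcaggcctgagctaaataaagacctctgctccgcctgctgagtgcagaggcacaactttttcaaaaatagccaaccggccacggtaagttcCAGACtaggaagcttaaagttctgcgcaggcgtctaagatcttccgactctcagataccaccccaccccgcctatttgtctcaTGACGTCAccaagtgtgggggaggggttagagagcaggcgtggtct
Cdkn1a, upstream start: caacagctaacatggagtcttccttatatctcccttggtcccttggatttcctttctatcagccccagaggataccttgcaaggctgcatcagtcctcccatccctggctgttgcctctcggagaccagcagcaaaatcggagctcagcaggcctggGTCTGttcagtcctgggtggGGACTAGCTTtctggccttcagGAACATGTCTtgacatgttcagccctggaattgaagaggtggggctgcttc
Cdkn1a, downstream start: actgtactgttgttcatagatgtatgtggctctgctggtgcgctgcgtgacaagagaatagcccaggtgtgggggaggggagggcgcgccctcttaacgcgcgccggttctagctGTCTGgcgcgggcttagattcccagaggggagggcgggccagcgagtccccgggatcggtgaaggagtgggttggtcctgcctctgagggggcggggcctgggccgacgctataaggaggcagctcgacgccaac
In Cdkn2b the CAGAC core began 129 bases and TGACGTCA 46 bases before the start. In Cdkn1a a core began 93 bases before the upstream start and 135 bases before the downstream one, and p53 decamers began 73 and 51 bases before the upstream start. CAGAC is short, and 42.2% of all 32851 mouse promoter windows of this length held it on some strand. TGACGTCA was in 1.55% of them, a p53 decamer in 7.13%, and 2 or more p53 decamers in 0.259%. Cdkn2a has windows at both of its start sites, chr4:89294620-89294869 and chr4:89282193-89282442, neither of which held CAGAC. The core was also found 137 and 59 bases before a Ccnd3 start and 188 bases before a Cdkn2c start, and both of these genes had lower means in reporter-positive cells. The Cdkn2a window chr4:89294620-89294869 held an E2F motif (searched as TTTGGCGC or TTTCCCGC) 99 bases before the start, and 1.30% of all windows held one. The Cdk4 window held CACGTG, the E-box bound by MYC, 4 times, where 0.0609% of windows held it 3 or more times. These matches describe the letters only, and no binding was measured.

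Other genes of the pathway were counted from lists chosen by function, with earlier results of these data known. Of 28 other genes of the G1/S pathway, 0 passed edgeR's test without pairing, and 1 was higher and 10 were lower with pairing. Among them Ccne2, which encodes cyclin E2, was at 16.1 CPM ± 0.625 (SD, n = 3) in negative and 10.7 ± 1.36 in positive cells (log2 difference -0.60 ± 0.10, adjusted p 0.0169 paired and 0.0828 unpaired). E2f1, the transcription factor that retinoblastoma protein holds in check, was at 24.1 ± 1.55 and 17.6 ± 1.75 CPM (adjusted p 0.0280 paired, 0.0917 unpaired). The remaining Ink4 gene, Cdkn2d (p19Ink4d), was at 21.3 ± 0.793 and 17.6 ± 0.602 CPM (adjusted p 0.0423 paired, 0.117 unpaired), the same direction as Cdkn2c. Ccne1 was at 47.7 ± 2.0 and 42.4 ± 1.10 CPM and did not pass (adjusted p 0.0892 paired). Of 20 proliferation genes, 19 were lower in the paired fit and 1, Tyms, without pairing (85.6 to 63.6 CPM, adjusted p 0.0475). Mcm5, part of the MCM helicase, was at 278 ± 11.8 and 188 ± 18 CPM (adjusted p 0.0106 paired, 0.0579 unpaired), Cdt1, a licensing factor, at 59.0 ± 3.90 and 40.7 ± 2.88 CPM (0.0119 and 0.0539), and Pcna, the sliding clamp, at 242 ± 5.86 and 187 ± 7.48 CPM (0.00977 and 0.0608).

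The p53 pathway list, which leaves out Cdkn1a itself, had 21 of 22 genes tested. In the paired fit 14 of them were higher and 0 lower, and without pairing 0 passed. Its median log2 difference was 0.38 in the paired fit, beside 0.00 over all genes. Ccng1, a p53 target that encodes cyclin G1, was at 216 ± 27.5 and 308 ± 7.59 CPM (adjusted p 0.00891 paired, 0.0741 unpaired). Mdm2, the ubiquitin ligase of p53, was at 44.3 ± 4.92 and 60.6 ± 0.527 CPM (0.0133 and 0.0815). Aen, an exonuclease gene, was at 83.8 ± 2.5 and 101 ± 3.24 CPM (0.0199 and 0.0874), and Eda2r, a death-domain receptor gene, at 2.32 ± 0.556 and 4.34 ± 0.119 CPM (0.0185 and 0.0881). Of 19 SMAD genes and known regulators of Ink4 and Cip genes, 5 were higher and 1 lower with pairing and 0 without. Foxo3, a forkhead factor that works with SMADs on Cdkn1a, was at 34.1 ± 1.73 and 51.5 ± 6.74 CPM (0.00580 and 0.0608), Klf4, a differentiation factor that also acts on Cdkn1a, at 246 ± 9.20 and 408 ± 74.9 CPM (0.0104 and 0.0628), and Foxo1 at 17.0 ± 1.72 and 20.4 ± 2.02 CPM (0.0455 and 0.268). Smad3 was at 47.1 ± 1.18 and 52.6 ± 1.73 CPM and did not pass (0.0984 paired). Of 12 genes that govern cyclin D stability, 1 was lower in the paired fit: Fbxo31, which encodes an F-box protein that targets cyclin D1, at 15.8 ± 0.862 and 12.8 ± 0.624 CPM (0.0429 and 0.129). The other genes of this list that the rule names, Cul4a, Rbx1 and Cryab, had paired adjusted p-values of 0.0864, 0.145 and 0.154.

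Other markers moved with the tumor groups as well. Of 9 suprabasal keratinocyte genes tested, 6 were higher and 0 lower in the paired fit, and their summed level over 10 genes was 987, 1417 and 1050 CPM in the negative and 1653, 4784 and 1573 CPM in the positive libraries. Of 13 dissociation stress genes tested, 6 were higher and 0 lower. The sums over all 14 listed were 7998, 3457 and 7618 CPM in negative replicates 1, 2 and 3 against 8832, 4368 and 8638 CPM in the positive ones. The sums below also take in every listed gene, tested or not. Of 10 macrophage genes 3 were higher, with sums of 19.7 to 69.6 CPM in the negative and 26.2 to 98.8 CPM in the positive libraries, and none of these genes was at 0 in either group. Of 5 neutrophil genes tested 2 were higher, and the sums did not overlap, at 54.1, 85.3 and 62.8 CPM in reporter-negative replicates 1, 2 and 3 and 98.7, 395 and 97.5 CPM in the reporter-positive ones, with Elane at 0 throughout. Of 10 keratinocyte genes 3 were higher and 1 lower, of 10 fibroblast genes 2 were lower (sums of 170 to 260 and 149 to 281 CPM), of 3 dendritic and Langerhans cell genes 1 was higher, and the 1 T and NK cell gene tested was lower. The leukocyte, mast cell and basophil, and endothelial lists had 0 genes past the test, and no B cell gene had counts enough to be tested. All these marker calls are from the paired fit. Without pairing 1 keratinocyte gene was higher, and 0 genes of the other marker lists passed. The part of these markers in the differences of the members was not tested. Replicate 2 had the highest suprabasal sum in both groups, the lowest stress sum, and the widest differences of Ccnd2, Cdkn1a, Cdkn2a, Cdkn2b and Cdkn2c. Without replicate 2 in either group and without pairing, 6 members were called higher and 4 lower, from 2 libraries a group, where 20.4% of all genes were called higher and 19.2% lower. In that fit the log2 difference of Ccnd2 was 1.13, of Cdkn2a 0.95, of Cdkn1a 0.48, of Cdkn2b 0.50 and of Cdkn2c -0.38. Replicates 1 and 3 lay close to each other, as stated above, so that fit has a small spread.

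**Figure D4:**
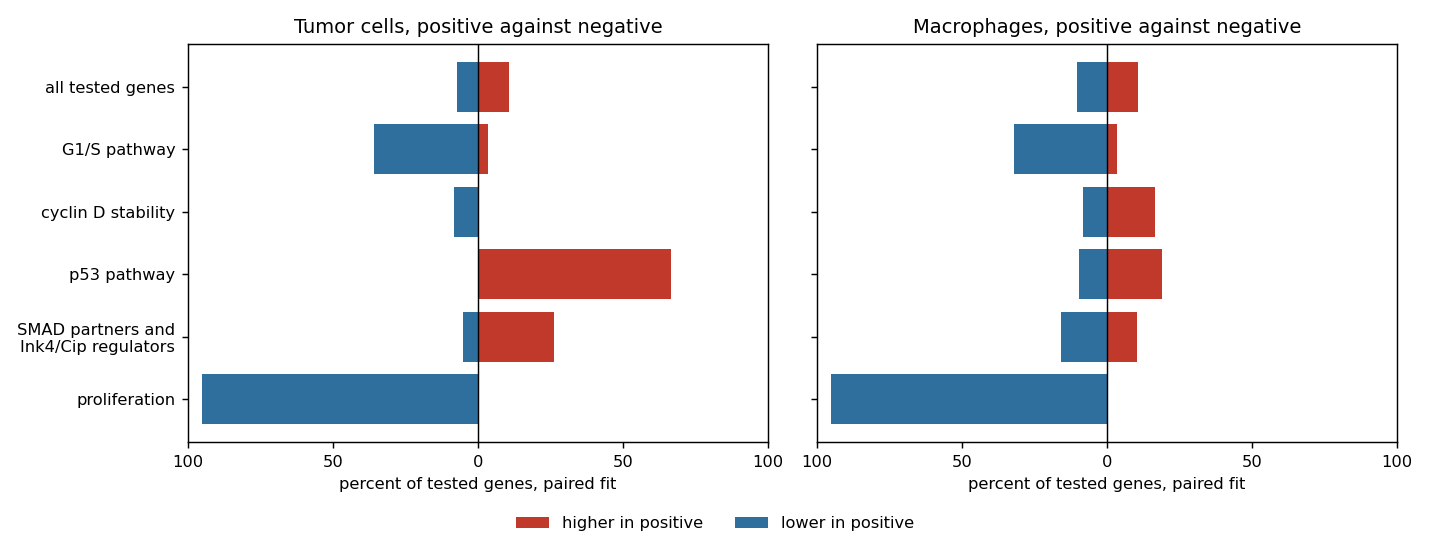
Percent of the tested genes of each pathway list that edgeR's test called higher (right, red) or lower (left, blue) in positive cells in the paired fit, with all tested genes in the top row, for tumor cells and macrophages. Of 20 proliferation genes 19 are lower in both comparisons, and of 21 p53 pathway genes 14 are higher in tumor cells and 4 in macrophages.

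The second comparison was between FceRIa-positive and FceRIa-negative macrophages. In positive macrophages Ccnd1, Ccnd3 and Cdkn2c were lower in the paired fit, at 0.568, 0.626 and 0.653 of the negative mean, and the levels of Cdk4, Cdk6, Cdkn1a, Cdkn2a and Cdkn2b overlapped between the groups. Without pairing, edgeR's test called 0 of 10 members and 0 of 14988 genes, which is 0% in each direction, while 3 members and 2345 genes had an unadjusted p under 0.05 and DESeq2 called 1 member lower (Cdkn2c, adjusted p 0.00378), where it called 4.04% of all genes lower. The paired fit called 0 members higher and 3 lower, where 10.8% of all genes were called higher, 10.2% lower and 21.0% in either direction. The groups did not overlap for 3 of 10 members, Ccnd1, Cdkn1b and Cdkn2c, against 21.2% of all genes tested. The median log2 difference of the members was -0.25 without pairing, beside -0.00 over all genes.

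Ccnd1 was at 48.3, 73.0 and 74.5 CPM in FceRIa-negative replicates 1, 2 and 3 and at 25.4, 47.3 and 38.5 CPM in FceRIa-positive replicates 1, 2 and 3. Replicate 1 was the lowest of each group, and the highest positive library lay just below the lowest negative one. The log2 difference was -0.81 ± 0.27 without pairing (edgeR adjusted p 0.204) and -0.82 ± 0.09 with pairing (adjusted p 0.000684). Ccnd3, the D-type cyclin prominent in blood cells, was at 75.4, 52.8 and 100 CPM in the negative and 52.2, 34.5 and 56.4 CPM in the positive libraries. These ranges overlapped because replicate 2 was low in both groups, while the positive library was the lower one within each of the 3 numbers. The log2 difference was -0.66 ± 0.28 without pairing (adjusted p 0.317) and -0.65 ± 0.08 with pairing (adjusted p 0.00160). Ccnd2 was at 42.5, 35.6 and 54.0 CPM in the negative and 28.8, 32.9 and 46.5 CPM in the positive libraries. Its ranges overlapped, and the log2 difference of -0.28 did not pass (adjusted p 0.679 unpaired, 0.0682 paired). In the paired fit it passed without replicate 2 (adjusted p 0.0426) and without replicate 3 (0.0288).

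The macrophage cyclin D pool was mixed, in contrast to that of the tumor cells. Ccnd1 made up 51.0% ± 9.09 (SD, n = 3) of the summed CPM per kilobase in negative and 45.6% ± 10.5 in positive macrophages, and Ccnd3 31.7% ± 6.97 and 32.3% ± 9.43. The share of Ccnd2 was 19.4%, 15% and 17.4% in negative and 21.3%, 20.0% and 25.3% in positive replicates 1, 2 and 3. This share was 5.0 points higher in the positive group, and the ranges did not overlap (two-sided exact permutation p = 0.1, the smallest possible). The mean Ccnd2 level was 44.0 CPM in negative and 36.1 CPM in positive macrophages, and the summed cyclin D level was 23.4, 25.3 and 33.0 CPM per kilobase in negative and 14.4, 17.5 and 19.5 in positive macrophages.

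The kinases did not differ beyond their spread in macrophages. Cdk4 was at 117, 105 and 121 CPM in the negative and 108, 110 and 133 CPM in the positive libraries, with a 95% interval of the log2 difference of -0.29 to 0.39. Cdk6 was at 62.3, 77.0 and 54.5 CPM in the negative and 69.0, 76.8 and 60.4 CPM in the positive libraries, with an interval of -0.33 to 0.54. The groups overlapped for both kinases (edgeR adjusted p 0.926 and 0.868).

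Among the inhibitors, Cdkn2c was at 11.3, 10.9 and 10.5 CPM in the negative and 6.40, 7.17 and 7.73 CPM in the positive libraries. Every positive library was below every negative one. The log2 difference was -0.60 ± 0.15 without pairing (edgeR adjusted p 0.0997) and -0.61 ± 0.12 with pairing (adjusted p 0.00968), and the paired call was lost without replicate 1 (0.0841). Cdkn1b was at 86.3, 85.2 and 87.4 CPM in the negative and 81.3, 73.3 and 65.8 CPM in the positive libraries. Its groups did not overlap, but the log2 difference of -0.22 ± 0.11 did not pass (adjusted p 0.409 unpaired, 0.107 paired). Cdkn1a was at 151, 40.8 and 200 CPM in the negative and 150, 51.2 and 151 CPM in the positive libraries. Replicate 2 was low in both groups, and the 95% interval of the unpaired log2 difference ran from -1.87 to 1.58. The summed level of 14 dissociation stress genes, of which Jund is listed at 0 in all 6 macrophage libraries, was low in the same libraries, at 1917 and 1820 CPM in replicate 2 against 4489 to 6513 CPM in the other 4, and its part in the level of Cdkn1a was not tested.

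Cdkn2a and Cdkn2b had few counts in macrophages. Cdkn2a had 85, 70 and 5 counts in the negative and 46, 58 and 12 counts in the positive libraries, or 0.143 to 2.11 CPM. Replicate 3 was the lowest of each group. Cdkn2b had 34, 31 and 13 counts in the negative and 21, 32 and 8 counts in the positive libraries, or 0.229 to 0.846 CPM. Neither gene passed the test (adjusted p 0.937 and 0.924 unpaired). The 95% interval of the log2 difference was -2.78 to 2.20 for Cdkn2a (-1.61 to 1.29 paired) and -1.73 to 1.30 for Cdkn2b (-1.68 to 1.18 paired).

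Keratinocyte transcripts moved with the macrophage groups. The summed level of the 10 keratinocyte genes was 3966, 2880 and 2207 CPM in negative and 2279, 1566 and 601 CPM in positive macrophages, and 8 of the 10 were lower in the paired fit. As a percent of the tumor mean that sum stood at 5.44, 3.95 and 3.03 for FceRIa-negative replicates 1, 2 and 3 and at 3.13, 2.15 and 0.824 for the FceRIa-positive ones. Ccnd1 stood at 6.14%, 9.29% and 9.48% of its own tumor mean in FceRIa-negative replicates 1, 2 and 3 and at 3.23%, 6.02% and 4.90% in the FceRIa-positive ones, above the keratinocyte percent in 6 of 6. Cdkn2a ranged from 0.292% to 4.31% and was above it in 1 library and below it in 5, and Cdkn2b ranged from 0.884% to 3.27% and was above it in 2 and below it in 4. The other members stood at 13.9% or more of their tumor mean in every macrophage library. How much of the Ccnd1 difference keratinocyte RNA carries was not tested.

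**Figure D5:**
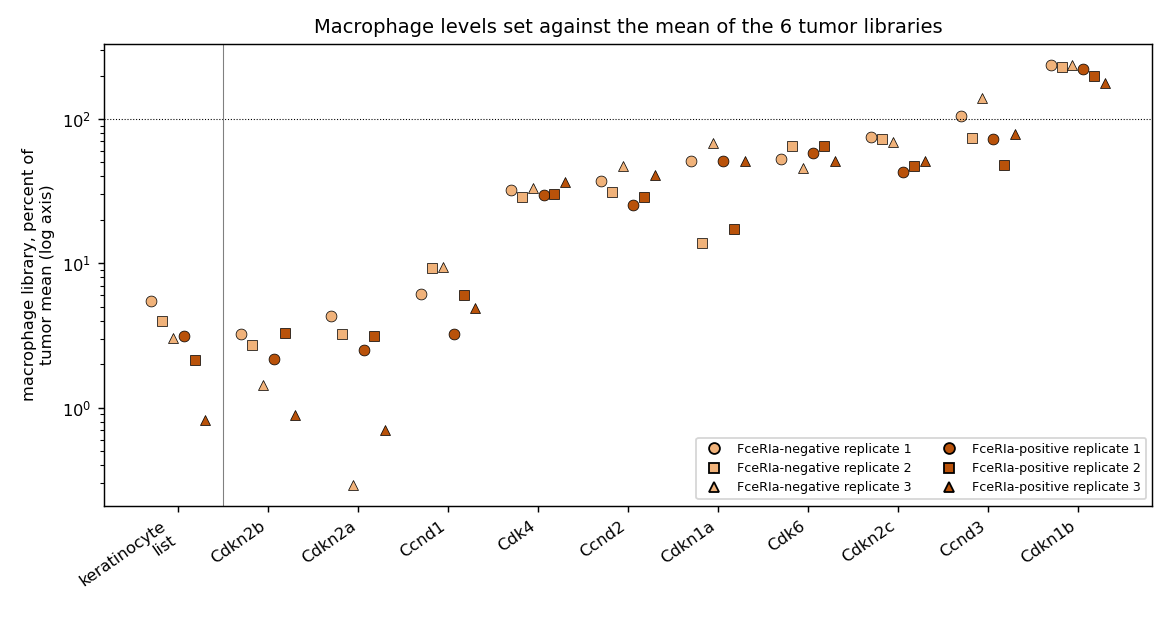
Level in each of the 6 macrophage libraries as a percent of the mean CPM of the 6 tumor libraries, on a log axis, for the summed keratinocyte list and the 10 members, with a dotted line at 100%. Cdkn2a (0.292% to 4.31%) and Cdkn2b (0.884% to 3.27%) lie low with the keratinocyte list (0.824% to 5.44%). Ccnd1 lies above that list within each library, but only just in FceRIa-positive replicate 1 (3.23% against 3.13%). Cdkn1b lies at 179% to 237%.

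Markers of other cells and of the cell cycle also differed between the macrophage groups in the paired fit, while 0 genes passed without pairing. Of 10 macrophage genes 9 were higher in FceRIa-positive cells in the paired fit, with sums of 15054 to 19644 CPM in negative and 28261 to 30960 CPM in positive libraries. Of 9 dendritic and Langerhans cell genes tested, 1 of which (Epcam) is also in the keratinocyte list, 6 were lower, with sums of 1257 to 1758 and 737 to 979 CPM. In other lists the genes that passed and were lower were 5 of 9 suprabasal keratinocyte, 4 of 5 neutrophil, 4 of 9 mast cell and basophil, 1 of 3 B cell, 4 of 13 dissociation stress and 1 of 10 fibroblast genes tested. Neutrophil sums were 124 to 660 CPM in negative and 139 to 355 CPM in positive libraries, mast cell and basophil sums 19.5 to 152 and 10.1 to 40.0 CPM, and B cell sums 29.2 to 62.5 and 17.3 to 19.6 CPM, the last without overlap. Of 6 T and NK cell genes tested 5 were lower and 1 higher. The sum over all 10 listed T and NK cell genes was 71.7 to 86.1 CPM in negative and 121 to 165 CPM in positive libraries. The other sums here also take in every listed gene, tested or not. Of the leukocyte genes 1 was higher and 2 lower, and of the endothelial genes 1 was higher. Apart from Jund, none of these marker genes was at 0 throughout a macrophage group, and their part in the members' differences was not tested. Of 20 proliferation genes 19 were lower with pairing and 0 without. Top2a, the topoisomerase of dividing cells, was at 151 ± 24.4 CPM (SD, n = 3) in negative and 77.7 ± 17.4 CPM in positive macrophages (adjusted p 0.000549 paired, 0.0786 unpaired). Ccnb1 was at 16.0 ± 1.21 and 7.41 ± 1.23 CPM, Ccnb2 at 33.6 ± 8.15 and 14.4 ± 2.30 CPM, both encoding mitotic cyclins, and Cdk1, their kinase, at 35.1 ± 2.39 and 24.1 ± 1.97 CPM (paired adjusted p 0.000615, 0.000396 and 0.00228, unpaired 0.0587, 0.0591 and 0.0787).

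Of the 28 other G1/S genes, 1 was higher and 9 were lower in positive macrophages with pairing, and 0 passed without. The 4 with the smallest p were all lower. They were Ccna2, the S-phase cyclin A2, at 42.9 ± 7.95 and 20.5 ± 4.06 CPM, Cks1b, a cyclin-kinase subunit, at 27 ± 4.11 and 13.9 ± 2.21 CPM, E2f2 at 39.5 ± 11 and 18.8 ± 3.09 CPM, and E2f8 at 23.5 ± 3.30 and 14.2 ± 1.13 CPM. Their paired adjusted p-values were 0.00046, 0.000665, 0.000785 and 0.00177, and the unpaired ones 0.0620, 0.0603, 0.0822 and 0.0722. Of the 12 cyclin D stability genes 2 were higher with pairing and 1 lower. Gsk3b, the kinase that marks cyclin D1 for export and breakdown, was at 64.9 ± 0.332 and 80.1 ± 7.70 CPM (adjusted p 0.0291 paired, 0.191 unpaired), and Cul4a, a ubiquitin ligase scaffold, at 68.8 ± 0.695 and 80.8 ± 3.64 CPM (0.0477 and 0.230). Fbxo31 was lower, at 25.2 ± 5.05 and 20.4 ± 3.46 CPM (0.0379 and 0.588), and Fbxo4 did not pass (0.0505 paired). Of the 21 p53 pathway genes 4 were higher and 2 lower with pairing: Sesn1, a stress-response gene, was at 85 ± 38.2 and 136 ± 39.4 CPM (0.00364 and 0.430), Dcxr at 44.6 ± 8.32 and 56.2 ± 6.90 CPM (0.0257 and 0.375), and Btg2, an antiproliferative gene, at 289 ± 124 and 181 ± 59.7 CPM (0.00307 and 0.488), while Tnfrsf10b did not pass (0.110 paired). Of the 19 SMAD and Ink4/Cip regulators 2 were higher and 3 lower with pairing. Ezh2, the Polycomb methyltransferase that keeps the Ink4 locus silent, was at 33.5 ± 4.06 and 22.2 ± 2.51 CPM (0.00686 and 0.10), Id1 at 18.8 ± 8.74 and 9.17 ± 3.80 CPM (0.000648 and 0.371), and Smad3 at 17.0 ± 2.72 and 23.1 ± 2.17 CPM (0.0316 and 0.213), while Foxo3 did not pass (0.0662 paired).

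The third comparison set all 6 tumor against all 6 macrophage libraries. Of the 10 members 8 were higher in tumor cells and 1, Cdkn1b, was lower, by edgeR's test. This share is read against a background in which 85.4% of 16279 genes passed, 40.6% higher and 44.8% lower in tumor cells. The widest differences were those of the neighbours Cdkn2b and Cdkn2a. Cdkn2b had a median of 24.1 CPM (18.8 to 37.9) in tumor and 0.633 CPM (0.229 to 0.846) in macrophage libraries, a log2 difference of 5.39 ± 0.28. Cdkn2a had a median of 46.2 CPM (27.5 to 90.4) and 1.38 CPM (0.143 to 2.11), a log2 difference of 5.30 ± 0.48. Neither gene's ranges overlapped.

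Ccnd1 was next, with a median of 787 CPM (729 to 838) in tumor and 47.8 CPM (25.4 to 74.5) in macrophage libraries, a log2 difference of 4.0 ± 0.17. Cdk4 had medians of 366 and 114 CPM (log2 1.65 ± 0.08), Ccnd2 of 105 and 39.1 CPM (1.37 ± 0.15), Cdk6 of 117 and 65.7 CPM (0.83 ± 0.09) and Cdkn2c of 14.1 and 9.11 CPM (0.75 ± 0.09), with no overlap for any of these 5 genes. Cdkn1a had medians of 286 CPM (199 to 406) and 150 CPM (40.8 to 200), ranges that overlapped, and a log2 difference of 1.21 ± 0.36. Cdkn1b was the member with the higher CPM in macrophages, at a median of 83.2 CPM (65.8 to 87.4) against 37.7 CPM (30.0 to 40.8) in tumor cells, a log2 difference of -1.12 ± 0.07. Ccnd3 overlapped, with medians of 72.9 and 54.6 CPM, and did not pass (0.26 ± 0.15, adjusted p 0.142), except without negative macrophage replicate 3 (0.38, adjusted p 0.0249).

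Adjusted p-values of the 9 called members ran from 2.68e-09 to 0.00807 in edgeR's test over 12 libraries. Positive and negative libraries of a number share a source where the numbers pair them. With these summed to 3 tumor and 3 macrophage libraries, the same 9 genes passed, with adjusted p from 1.66e-05 to 0.0410. Cell type and sort cannot be told apart. CPM gives a share of each library's counts, and RNA per cell was not measured. TMM scaling takes most genes as unchanged, while 85.4% passed here, which leaves the common scale uncertain. Sex-linked transcripts differed as well. Every tumor library had 886 to 1459 counts of Ddx3y and 0 to 5 of Xist. Xist was at 8506 to 18122 counts in macrophage replicates 1 and 3 and at 4 and 6 in replicate 2. The part of sex in the differences between tumor cells and macrophages was not tested. The tables also differ in that 12 genes with over 100 counts in every tumor library had 0 in every macrophage library, and 16 the reverse. Med10, a general Mediator subunit, had 1999 to 2664 counts per tumor library and 0 in the macrophages. Whether both tables were counted in the same way was not tested.

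Levels were ranked between genes as CPM per kilobase of exon. In reporter-negative tumor cells the order was Ccnd1 at 157 ± 2.43 (SD, n = 3), Cdk4 at 113 ± 1.02, Cdkn1a at 64.1 ± 6.94, Cdkn2a at 27.3 ± 6.46 and Cdkn2b at 14.3 ± 0.898. Each of these lay outside the range of the next. Below them came Cdkn1b at 8.76, Ccnd3 at 8.65, Cdk6 at 8.03, Ccnd2 at 7.01 and Cdkn2c at 6.59, where Cdkn1b overlapped Ccnd3 and Ccnd2 overlapped Cdkn2c. In reporter-positive cells the first 5 kept their order, at 176 ± 1.68, 110 ± 5.24, 102 ± 11.3, 56.3 ± 18.2 and 23.0 ± 4.02, with Cdk4 and Cdkn1a now overlapping. Ccnd2 stood directly below them at 17.2 ± 3.58 and overlapped Cdkn2b.

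In FceRIa-negative macrophages Cdkn1a at 36.7 ± 22.9 and Cdk4 at 35.2 ± 2.64 had the highest means and overlapped, followed by Cdkn1b at 19.0 ± 0.249, Ccnd1 at 13.9 ± 3.13 and Ccnd3 at 8.68 ± 2.71 CPM per kilobase, the last pair overlapping. In FceRIa-positive macrophages Cdk4 at 36.0 ± 4.28 and Cdkn1a at 33.0 ± 16.1 had the highest means and overlapped again, Cdkn1a also overlapped Cdkn1b at 16.1 ± 1.71, and Cdkn1b stood above Ccnd1 at 7.87 ± 2.35. In replicate 2 Cdkn1a lay below Cdkn1b in both groups, at 11.5 against 18.7 in negative and 14.4 against 16.1 in positive macrophages. Cdkn2a and Cdkn2b were the lowest in both macrophage groups, at 1.09 and 0.461 in negative and 0.883 and 0.392 in positive cells. The 4 genes between them and Ccnd1 lay at 2.64 to 5.44 in positive cells, and only Cdkn2c there was clear of its neighbours on both sides. The exon lengths include long untranslated stretches of annotated isoforms that a cell may not use, so these levels between genes are approximate.

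Several members share exon bases with a gene on the opposite strand, and the strand setting of the counting is not given. Ccnd1 shares 1100 bases with LTO1, which had 769 to 1132 counts per library, against 950 to 25920 for Ccnd1. Ccnd3 shares 361 bases with Bysl (690 to 2604 counts) and Cdk4 641 bases with Tspan31 (2028 to 3582 counts). Reads from these bases cannot be told apart. Cdkn1a shares exon bases with AC167363.2, whose counts were not analysed here. The partners of Ccnd2 and Cdk6 had at most 19 counts in any library, and Cdkn1b, Cdkn2a, Cdkn2b and Cdkn2c share no exon base with another gene in GENCODE M21.

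The genes whose log2 CPM ran most like that of the leading member of each comparison were taken from 8960 genes expressed in both cell types, over all 12 libraries. For Ccnd2 these were Hsdl2, which encodes a peroxisomal dehydrogenase-like protein, Acss2, an acetyl-CoA synthetase, and Limk1, a kinase of cofilin, with Pearson r of 0.966, 0.951 and 0.950. Acss2 averaged 9.60 and 25.0 CPM in negative and positive tumor cells and 4.98 and 3.5 CPM in negative and positive macrophages. For Cdkn2c they were Tipin, a replication fork protein, Lbr, the lamin B receptor, and Mrpl37, a mitochondrial ribosomal protein, with r of 0.963, 0.961 and 0.958. Tipin averaged 54.3 and 42.3 CPM in tumor cells and 32.6 and 22.3 CPM in macrophages. The 12 points are paired by replicate number and fall into the 2 cell types, so these values are descriptions.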

How the data were processed

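RNA from 12 sorted libraries was measured by sequencing. The authors deposited 2 tables of unnormalized read counts by gene. The submitters' processing notes name FastQC, STAR and mm10 (GRCm38), while neither the software that counted reads, nor its strand option, nor the gene models are stated here. Library preparation was with Illumina TruSeq v2, per the labels' protocols. All 53801 genes of a table carry a name (0 without one). Another 4 count columns match no sample described here and were not used. Of the gene IDs, 53620 matched GENCODE M21, which gave coordinates and merged exon lengths.

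The deposited counts went into edgeR 4.0.16 under R 4.3.3 (TMM factors, filterByExpr, quasi-likelihood test, Benjamini-Hochberg adjustment over all genes tested, threshold 0.05), without pairing in the main design and, beside it, with a block for each replicate number. What a number marks is not stated. It was used for pairing because each same-number correlation of deviations from the group means was over 0.1, but tumor negative replicate 1 correlated as well with positive replicate 3 (0.488) as with its own number (0.449), so the tumor numbers separate replicate 2 from 1 and 3. Within a cell type and with all its libraries, the unpaired fits leave 4 and the paired fits 2 residual degrees of freedom. Fits with libraries left out or summed leave fewer. Differences are log2, positive minus negative or tumor minus macrophage; their standard errors were derived from the F statistic and their 95% intervals from Student's distribution, not adjusted over genes. The cell type fit used 12 libraries in 4 groups. Alternatives were DESeq2 1.42.0, other scaling factors and filters, left-out libraries, and summed replicates 1 and 3; leaving out replicate 2 of both groups was added after the data were seen. Depth was 27951632 to 40041144 counts per library. The scripts were tested on simulated counts with known changes. Of 2-fold changes, the unpaired fit recovered 59.7% in tumor cells and 17.9% in macrophages, and the paired fit 85% and 74.6%. False calls made up 7.7% and 10.1% of the calls without pairing and 8.7% and 4.9% with pairing.

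The members, the 5 pathway lists and the 12 marker lists were chosen with earlier results of these data known. Named are all members, up to 4 genes per pathway list and comparison with the smallest unpaired p, and the 3 genes most correlated with the member of smallest p in each of the tumor and macrophage comparisons, among genes with a mean of at least 10 CPM, predicted genes left out. Ddx3y, Xist and Med10 were named after their values were seen, as were the overlapping genes. Likeness used log2(CPM + 0.1).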

Additional observations from a re-analysis of the deposited data

How the results depend on the processing

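Each count of members is followed by the percent of all genes called in that direction in the same fit. In the tumor cells 1 member (0.573%) was called higher without pairing. It was 3 (0.699%) without a filter on low counts, 5 (5.65%) with DESeq2, 0 (0%) with replicates 1 and 3 summed, and 0 to 3 (0% to 2.85%) with 1 library left out. With the replicate block it was 4 (10.7%), 4 (8.31%) with the block and DESeq2, 4 (4.8%) with the block and replicates 1 and 3 summed, 4 to 6 (5.81% to 21.5%) with 1 replicate number left out, and 6 (20.4%) with replicate 2 left out of both groups and no block. The count called lower was 0 (0.235%). It was 1 (3.63%) with DESeq2, 1 (7.34%) with the block, 1 (5.13%) with the block and DESeq2, 1 to 4 (2.46% to 20.6%) with the block and 1 number left out, 0 (1.69%) with the block and replicates 1 and 3 summed, and 4 (19.2%) without replicate 2 in both groups. In the macrophages 0 (0%) were called lower. The count was 1 (4.04%) with DESeq2, 3 (10.2%) with the replicate block, 3 (9.45%) with the block and DESeq2, 2 to 4 (4.54% to 10.4%) with the block and 1 number left out, and 0 (0%) without replicate 2 in both groups and without the block. Other scaling factors and a filter at a mean of 1 CPM moved none of these member counts. The cell type counts were 8 higher (40.6%) and 1 lower (44.8%). Without negative macrophage replicate 3 they were 9 (39.9%) and 1 (44.4%), and every other alternative run kept 8 and 1. The shares of all genes were 21.7% higher and 29.6% lower without a filter. In the other alternative runs they were 36.8% to 42.2% higher and 42.0% to 45.7% lower.

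The sign changed for 5 uncalled macrophage differences, none past the threshold in either direction. Cdk4 was at -0.01 with upper-quartile factors, and ranged from -0.08 (without positive replicate 3) through -0.00 (without negative replicate 2) to 0.10 with 1 library left out. Cdkn2a was at 0.26 without negative replicate 1, 0.09 without positive replicate 3 and 0.27 in the block without replicate 1, and at its lowest -0.82 with 1 library left out. Cdkn2b was at 0.02 and 0.12 without negative replicate 1 or positive replicate 3 and -0.68 at its lowest, and Cdk6 at -0.01 without negative replicate 3. Cdkn1a was at 0.31 without negative replicate 3, 0.22 without positive replicate 2 and 0.18 in the block without replicate 3, and at its lowest -0.56. The cause was not tested.

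The difference in the Ccnd2 share was 7.7 points for tumor cells and 5.8 points for macrophages on CPM not scaled by length, and 3.5 to 5.0 and 3.4 to 6.0 points with 1 library left out. An exact sign-flip test over the 3 pairs gave p = 0.25 in both, the smallest it allows. With 3 libraries a group, and tumor replicates 1 and 3 close to each other, the precision of each tumor difference rests on few separate measurements.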

Other observations

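The genes around the members also differed between tumor cells and macrophages, in a comparison where 85.4% of all genes passed edgeR's test. Of 20 proliferation genes 20 were higher in tumor cells, among them Ccnb1 (121 against 11.7 CPM, log2 difference 3.47 ± 0.13, adjusted p 1.2e-09), Cdk1 (205 against 29.6 CPM), Plk1 (106 against 11.6 CPM) and Rrm2 (267 against 32.3 CPM). Of the 28 other G1/S genes 18 were higher in tumor cells and 6 lower. E2f7, an atypical E2F repressor, was at 94.3 against 3.84 CPM, E2f8 at 83.0 against 18.9 CPM, and Cks1b at 117 against 20.4 CPM. Rbl2, the retinoblastoma relative p130 of resting cells, was higher in macrophages, at 58.1 CPM against 18.3 CPM in tumor cells, the same direction as Cdkn1b.

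Of the 12 cyclin D stability genes 6 were higher in tumor cells and 5 in macrophages. Ddb1, the adaptor of CUL4 ligases, was at 1032 CPM in tumor cells and 302 in macrophages, and Fbxo4 at 13.1 against 3.80 CPM. The cyclin D1 deubiquitinase gene Usp2 was at 9.85 CPM in macrophages and 0.634 in tumor cells, and Trim21 at 19.5 and 3.28 CPM. Of the 22 p53 pathway genes 11 were higher in tumor cells and 5 in macrophages, with Trp53 itself at 153 CPM in tumor cells and 67.6 in macrophages, Tnfrsf10b at 27 and 1.69, Aen at 92.2 and 26.3, and Eda2r at 3.33 and 0.0856. Of the 19 SMAD and Ink4/Cip regulators 10 were higher in tumor cells and 4 in macrophages. Id3 was at 90.8 CPM in tumor cells and 4.13 in macrophages, while its relative Id2 was at 17.1 and 294 CPM. Ets1 was at 68.5 and 15.1 CPM, and Smad3 at 49.9 and 20.0 CPM. All of the genes named in both paragraphs passed with adjusted p-values of 9.92e-08 or below, except Eda2r (2.56e-07), Trp53 (4.04e-07) and Id3 (8.28e-07).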
